A study of Mus musculus with 6 samples.

Results

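Excitation-contraction coupling triad genes are described here as 10 genes chosen by name: the ryanodine receptor gene Ryr1, the voltage sensor genes Cacna1s, Cacnb1, Cacng1 and Cacna2d1, the voltage sensor partner Stac3, the junctophilins Jph1 and Jph2, and the scaffold genes Jsrp1 and Trdn. They are 10 of 51911 genes in the count table, and all 10 passed the filter on low counts, which kept 16593 genes. The series sequenced bulk RNA of gastrocnemius, a calf muscle, from male mice, with 3 transgenic and 3 wild-type libraries. The transgenic genotype, HSA-PGC-1a3, carries the a3 isoform of the coactivator PGC-1alpha under HSA, the human skeletal actin promoter, which is active in muscle fibres. The labels give neither the age, strain and founder line of the mice nor the number of animals behind a library, so every p-value below measures the spread between these libraries. The question addressed is how this isoform changes the muscle's transcripts.

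A skeletal muscle fibre contracts when an action potential runs down the transverse tubules (T-tubules), invaginations of its surface membrane. At the triad, a T-tubule lies between a pair of sacs of the sarcoplasmic reticulum (SR), the calcium store. The dihydropyridine receptor in the T-tubule senses the voltage and opens the ryanodine receptor of the facing SR by physical contact, and the released calcium starts contraction. Junctophilins hold the membranes together, and triadin and other scaffold proteins tie the release channel to the calcium-binding proteins of the SR lumen.

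Transcripts of all 10 triad genes were lower in the transgenic muscle than in the wild-type muscle. Jph2, a junctophilin, showed the greatest fold change of the 10, at 508 ± 38.5 against 1255 ± 76.8 CPM (SD, n = 3 each), and Cacna2d1, a voltage sensor subunit, the smallest, at 504 ± 34.7 against 619 ± 35.7 CPM. CPM are counts relative to the library size after scaling by TMM, a method that assumes most genes do not differ. Of the 10 genes, 10 passed an adjusted p of 0.05 as lower (edgeR's quasi-likelihood test, Benjamini-Hochberg adjustment over all tested genes), where 25.2% of all tested genes were called lower and 50.7% were called in either direction. All 10 had transgenic values wholly under the wild-type values, against 29.5% of all tested genes (59.6% were apart in either direction). Called lower by at least 1.5-fold were 7 of the 10 (all but Cacnb1, Cacng1 and Cacna2d1), against 11.3% of all tested genes. The members' median log2 fold change was -0.79, against -0.016 over all tested genes. In bulk tissue, fewer cells of a type and less RNA per cell cannot be told apart.

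The level of a change depended on the scaling, since TMM factors were 1.15 in the transgenic libraries and 0.851 to 0.885 in the wild-type libraries. With library totals alone the median of all genes moved up by 0.40 on the log2 scale, to 0.38, and the members' median moved to -0.39. The distance of the members' median from that of all genes was -0.77 under either scaling. A change of scaling moves all genes by nearly the same amount, so this distance is kept by arithmetic and is not a check. With totals alone 7 of the 10 genes were called lower, against 8.73% of all tested genes, and 7 did not overlap between genotypes with the transgenic libraries lower, against 9.99%. Jph2 alone was then called lower by at least 1.5-fold, against 4.0%, and 0 of the 10 were called higher, against 52.3%. The 3 calls that ended were Cacnb1 (log2 fold change -0.13, adjusted p = 0.101), Cacng1 (-0.076, adjusted p = 0.378) and Cacna2d1, whose sign turned (0.099, adjusted p = 0.248). Fold changes below use TMM.

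The promoters of the genes are shown as a description, and their relation to the direction or size of a change was not tested. RefSeq windows of 250 bases before a transcript start, on GRCm38.p6, were on hand for 5 of the 10 genes: Ryr1, Cacna1s, Cacnb1, Cacna2d1 and Jph2. Of Ryr1, Cacna1s, Cacna2d1 and Jph2 the bases upstream of both the RefSeq start and the GENCODE gene are printed, 5′ to 3′ on the gene's strand. Capitals mark CAGCTG, a form of the E-box that myogenic factors are known to bind, and GGGCGG or its reverse complement CCGCCC, the GC box known to be bound by Sp factors.
Ryr1 (chr7:29125180-29125401, minus strand): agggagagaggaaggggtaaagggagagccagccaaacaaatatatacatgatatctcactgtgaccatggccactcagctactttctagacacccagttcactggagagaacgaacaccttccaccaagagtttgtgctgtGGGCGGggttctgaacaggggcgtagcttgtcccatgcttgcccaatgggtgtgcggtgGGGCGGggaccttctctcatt
Cacna1s (chr1:136052561-136052749, plus strand): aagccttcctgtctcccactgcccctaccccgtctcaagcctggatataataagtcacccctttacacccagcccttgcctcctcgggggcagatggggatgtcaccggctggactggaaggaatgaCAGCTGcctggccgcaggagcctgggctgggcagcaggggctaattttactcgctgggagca
Jph2 (chr2:163397994-163398243, minus strand): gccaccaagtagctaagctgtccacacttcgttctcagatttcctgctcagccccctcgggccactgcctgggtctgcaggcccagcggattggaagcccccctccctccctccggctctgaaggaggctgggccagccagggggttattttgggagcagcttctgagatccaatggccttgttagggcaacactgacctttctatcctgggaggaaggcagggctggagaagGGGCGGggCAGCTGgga
Cacna2d1 (chr5:15934441-15934690, plus strand): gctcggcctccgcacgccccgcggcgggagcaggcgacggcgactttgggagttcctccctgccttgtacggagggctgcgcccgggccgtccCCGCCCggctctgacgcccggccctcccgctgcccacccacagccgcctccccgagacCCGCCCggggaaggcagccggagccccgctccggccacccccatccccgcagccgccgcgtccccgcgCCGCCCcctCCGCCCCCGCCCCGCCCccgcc
The E-box letters CAGCTG stood in the windows of Cacna1s, 123 to 118 bases before the RefSeq start, and of Jph2, 9 to 4 bases before it. In the other window of Jph2, which has another start, the same letters stood 29 to 24 bases before that start. CAGCTG was in 13.0% of 32851 promoter windows of the same length. The window of Cacna2d1 held 6 matches to the GC box, some of them overlapping. It was 82.4% G and C, against a median of 52.4% over all windows. GGGCGG on either strand was found in 32.7% of all windows, and also in Ryr1 (2 matches), Cacna1s (1), Jph2 (1 in each window) and Cacnb1 (5 in window 1 and 0 in window 2). The match in Cacna1s lies 46 to 41 bases before the RefSeq start, in the part of its window that falls within the GENCODE gene and is not printed, and the windows of Cacnb1 fall wholly within the GENCODE gene. The letters TATAAA (12.4% of all windows), TGACGTCA (the cAMP response element, 1.55%) and TNAAGGTCA (the site known for oestrogen-related receptors, 1.14%) were in none of the members' windows on either strand, nor were the MEF2 site (2.92%) and the CArG box (1.47%). A match describes letters in these windows and was not tested as a binding site.

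Ryr1 encodes the calcium release channel of the SR (chromosome 7, 29003344 to 29125179, minus strand, GRCm38, 109 merged exons). Its level was 3676, 3536 and 3045 CPM in transgenic replicates 1 to 3 against 6268, 6728 and 6771 CPM in wild-type replicates 1 to 3. The highest transgenic library lay far below the lowest wild-type library, and transgenic replicate 3 was the lowest of the 6. The log2 fold change was -0.95 (SE 0.08, adjusted p = 3.26e-06), and 5.61% of all tested genes had a lower one. Ryr1 made up 0.349% to 0.421% of all counts in the transgenic libraries against 0.554% to 0.595% in the wild-type libraries.

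All 4 subunits of the dihydropyridine receptor were lower, with fold changes of different size. Cacna1s, its pore and voltage sensor (chromosome 1, 136052750 to 136119822, plus strand, 45 merged exons), had 838, 778 and 804 CPM in the transgenic libraries against 1333, 1526 and 1412 CPM in the wild-type libraries. These groups were well apart, and the change of Cacna1s was -0.82 on the log2 scale (SE 0.07, adjusted p = 3.47e-06). Cacnb1, the subunit on the cytoplasmic side (chromosome 11, 98001508 to 98023034, minus strand), had 132, 129 and 141 CPM against 175, 211 and 192 CPM. Its change was -0.53 (SE 0.07, adjusted p = 0.000109), with transgenic replicate 3 the highest of its group. Cacng1, a subunit that spans the membrane and is known to dampen the channel's current (chromosome 11, 107703218 to 107716522, minus strand), had 159, 156 and 148 CPM against 214, 240 and 190 CPM. The wild-type libraries spread more than the transgenic ones here, and the change was -0.47 (SE 0.08, adjusted p = 0.000492).

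Cacna2d1 encodes the alpha2delta subunit on the outer face of the channel complex (chromosome 5, 15934691 to 16374511, plus strand, 42 merged exons). Its CPM were 475, 495 and 542 in the transgenic libraries against 653, 622 and 582 in the wild-type libraries. The ranges lay close to each other without overlap, and the log2 fold change was -0.30 (SE 0.07, adjusted p = 0.00495), with 29.5% of all tested genes lower still. Relative to the median of all genes its change was -0.28 under either scaling, a distance that a change of scaling leaves nearly as it was.

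Stac3 (chromosome 10, 127501686 to 127508823, plus strand), an adaptor that the voltage sensor needs to reach the triad and to open the release channel, had a fold change close to that of Ryr1. Its CPM were 145, 144 and 121 in the transgenic libraries against 238, 284 and 255 in the wild-type libraries, with transgenic replicate 3 the lowest, as for Ryr1. The log2 fold change was -0.92 (SE 0.09, adjusted p = 1.36e-05).

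Both junctophilins fell, with the larger fold change for Jph2. Jph1 (chromosome 1, 16964560 to 17097889, minus strand) is the form most typical of skeletal muscle and had 307, 289 and 318 CPM against 592, 623 and 549 CPM. Its log2 fold change was -0.95 (SE 0.07, adjusted p = 1.08e-06). Jph2 (chromosome 2, 163336242 to 163397993, minus strand) is shared with the heart and had 549, 501 and 473 CPM against 1199, 1343 and 1225 CPM. The genotypes were wide apart for Jph2, and the log2 fold change was -1.31 (SE 0.08, adjusted p = 2.41e-07). Only 2.30% of all tested genes had a lower fold change than Jph2.

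The scaffold genes Jsrp1 and Trdn fell as well. Jsrp1 (chromosome 10, 80808496 to 80813498, minus strand) encodes the protein JP-45, which binds the voltage sensor and calsequestrin, and had 253, 236 and 241 CPM in the transgenic libraries against 364, 433 and 378 CPM in the wild-type libraries, a change of -0.69 (SE 0.07, adjusted p = 1.72e-05). Trdn (chromosome 10, 33080554 to 33476709, plus strand) encodes triadin, which anchors calsequestrin at the release channel, and had 1050, 1079 and 1090 CPM against 1918, 1874 and 1661 CPM. The transgenic libraries were nearly level for Trdn, and its change was -0.76 (SE 0.07, adjusted p = 6.37e-06).

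**Figure D1:**
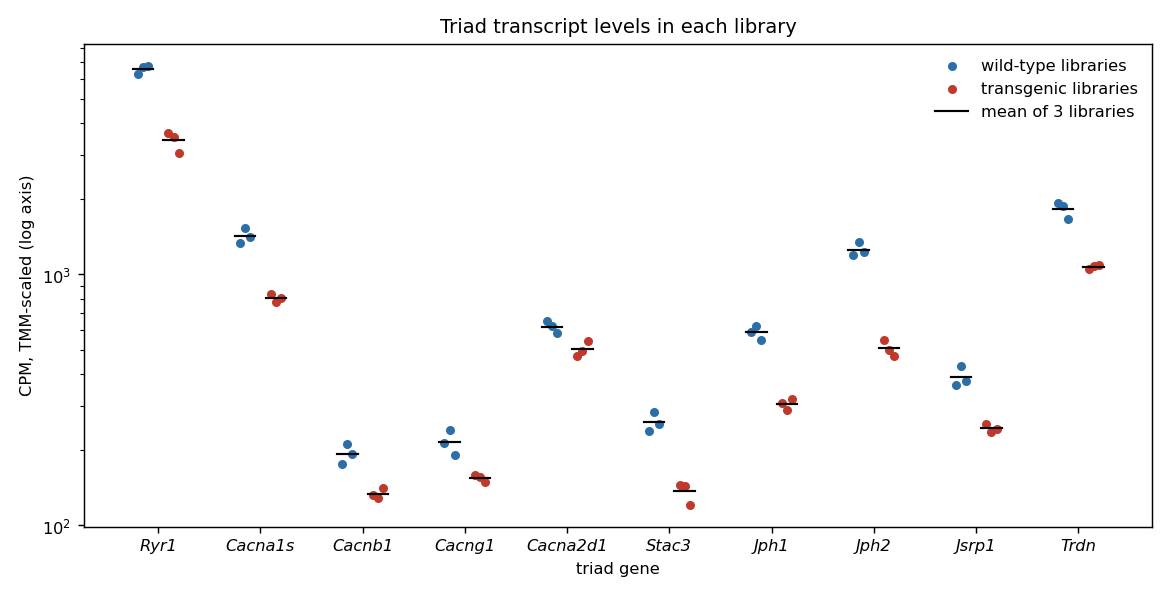
Level of each triad gene (x axis) in CPM with TMM scaling (y axis, log scale) in the 3 wild-type libraries (blue) and 3 transgenic libraries (red); black lines are group means. For all 10 genes the red points lie below the blue points, from Ryr1 at 3419 against 6589 CPM to Cacnb1 at 134 against 193 CPM.

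**Figure D2:**
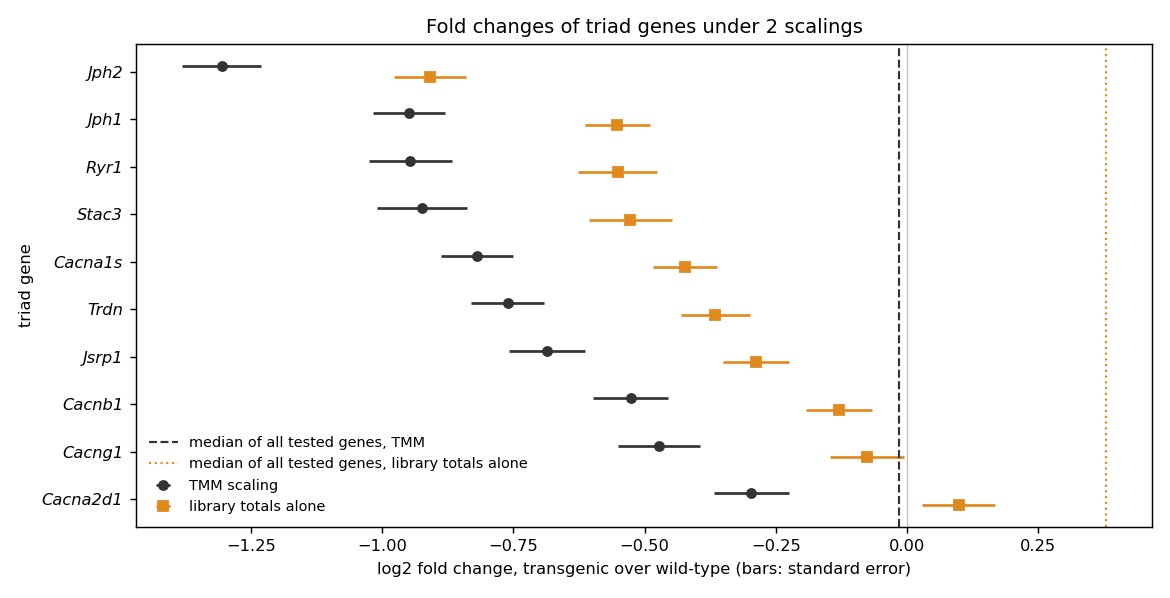
Log2 fold change of each triad gene (x axis, transgenic over wild-type, bars are standard errors of the fit on 3 libraries a group) with TMM scaling (black circles) and with library totals alone (orange squares). Vertical lines give the median of all tested genes, -0.016 (dashed) and 0.38 (dotted): genes and median shift together, and only Cacna2d1 lies above 0, with totals alone (0.099).

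Overlapping genes on the opposite strand can lend counts to a triad gene, since fragments were counted without strand and once for each gene they touched. Cacna1s shares 1309 exonic bases with the antisense gene Gm37759, whose counts came to at most 19.0% of those of Cacna1s in any library. Ryr1 shares 864 bases with Gm26604 (at most 4.67% of its counts) and 50 with Gm44408 (0.779%), Jph1 shares 34 with Gm28376 (1.82%), and Cacnb1 shares 80 with Gm11629 (0.590%). With these counts subtracted, a setting chosen after seeing the data, the log2 fold changes were -0.94 for Ryr1, -0.83 for Cacna1s, -0.53 for Cacnb1 and -0.95 for Jph1, and all 4 were still called lower.

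The authors' deposited table lists 3614 genes with absolute log2 fold changes of 0.585 or more, in both directions, beside 51911 genes in the count table. It held 7 of the 10 triad genes, all of them lower in transgenic muscle. How many of its genes were lower was not counted. The 7 are those called lower by at least 1.5-fold above, where 11.3% of all tested genes were. Both results come from the same libraries and are not independent. In the authors' deposited table the log2 fold change was -1.32 for Jph2, -0.96 for Ryr1, -0.95 for Jph1, -0.93 for Stac3, -0.83 for Cacna1s, -0.74 for Trdn and -0.72 for Jsrp1. Cacnb1, Cacng1 and Cacna2d1 are not among the genes of the authors' deposited table.

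Divided by exon length, the order of the genes differed between genotypes. Per kilobase of merged exons, the wild-type levels were 302 ± 12.8 CPM for Ryr1, 295 ± 18.0 for Jph2 and 294 ± 27.6 for Jsrp1 (SD, n = 3), which overlapped. Then came Cacna1s (217 ± 14.8), Trdn (194 ± 14.7) and Cacng1 (172 ± 19.8), each overlapping its neighbour, Jph1 (118 ± 7.35) and Stac3 (102 ± 9.27), which also overlapped, and, apart from the rest and from each other, Cacna2d1 (49.9 ± 2.87) and Cacnb1 (42.6 ± 3.97). In the transgenic libraries Jsrp1 led with 183 ± 6.65 CPM per kilobase, above Ryr1 with 157 ± 15.2. Jph2, level with Ryr1 in wild-type muscle, stood among Cacng1, Cacna1s and Trdn at 115 to 124 CPM per kilobase in transgenic muscle, where neighbours overlapped. Jph1 (61.0 ± 2.95), Stac3 (53.7 ± 5.38), Cacna2d1 (40.6 ± 2.80) and Cacnb1 (29.6 ± 1.39) followed without overlap. The order depended on the length used. With the longest protein-coding transcript, a setting chosen after seeing the data, Trdn rose to 403 CPM per kilobase in wild-type and 238 in transgenic muscle. Ryr1 stood beside it at 429 and 223. Jsrp1 then no longer led in transgenic muscle, where it overlapped Ryr1 at 220. Jph2 was no longer level with Ryr1 in wild-type muscle, at 298 against 429 without overlap. Cacnb1 stayed lowest at 56.8 in wild-type and 39.4 in transgenic muscle.

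Ratios of triad genes within a library do not depend on scaling, and 10 pairs were compared. In log2 units, the ratio to Cacna1s was higher in transgenic muscle by 0.52 for Cacna2d1, 0.35 for Cacng1 and 0.30 for Cacnb1. Per kilobase of merged exons, Cacna2d1 stood at 0.299, 0.335 and 0.356 times Cacna1s in the transgenic libraries. In the wild-type libraries it stood at 0.259, 0.215 and 0.217 times Cacna1s. The level of such a ratio depends on the length used, while its fold difference between genotypes does not. By longest protein-coding transcript, Cacna2d1 had 67.8 and Cacna1s 129 CPM per kilobase in transgenic muscle, against 83.3 and 228 in wild-type muscle. The Jph2 to Ryr1 and Jph2 to Jph1 ratios were both lower by 0.36, and Jsrp1 to Ryr1 was higher by 0.27. Per kilobase, Jph2 stood at 2.10, 2.04 and 1.75 times Jph1 in the transgenic libraries against 2.38, 2.53 and 2.62 times in the wild-type libraries. The groups did not overlap for these 6 of 10 ratios, where 59.6% of single tested genes were apart in either direction under TMM. The share over all pairs of genes was not computed. Each of the 6 had an exact permutation p of 0.1 (two-sided, adjusted p = 0.167 over the 10 pairs). With 3 libraries against 3, 0.1 is the smallest p that this test allows. None of the 6 differences can therefore pass 0.05 in this test.

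The other ratios overlapped between genotypes. Cacna1s to Ryr1 differed by 0.13 (exact permutation p = 0.2, adjusted 0.286), Trdn to Ryr1 by 0.19 and Stac3 to Cacna1s by -0.11 (both exact permutation p = 0.3, adjusted 0.333). Jph1 to Ryr1 differed by 0.0027 (exact permutation p = 1.0). Per kilobase of merged exons, Jph1 stood at 0.365, 0.357 and 0.457 times Ryr1 in the transgenic libraries. In the wild-type libraries it stood at 0.413, 0.404 and 0.355 times Ryr1. Transgenic replicate 3 was the highest of the 6 for Jph1 to Ryr1, and without it the difference was -0.11. Without wild-type replicate 3, the lowest, it was -0.065.

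**Figure D3:**
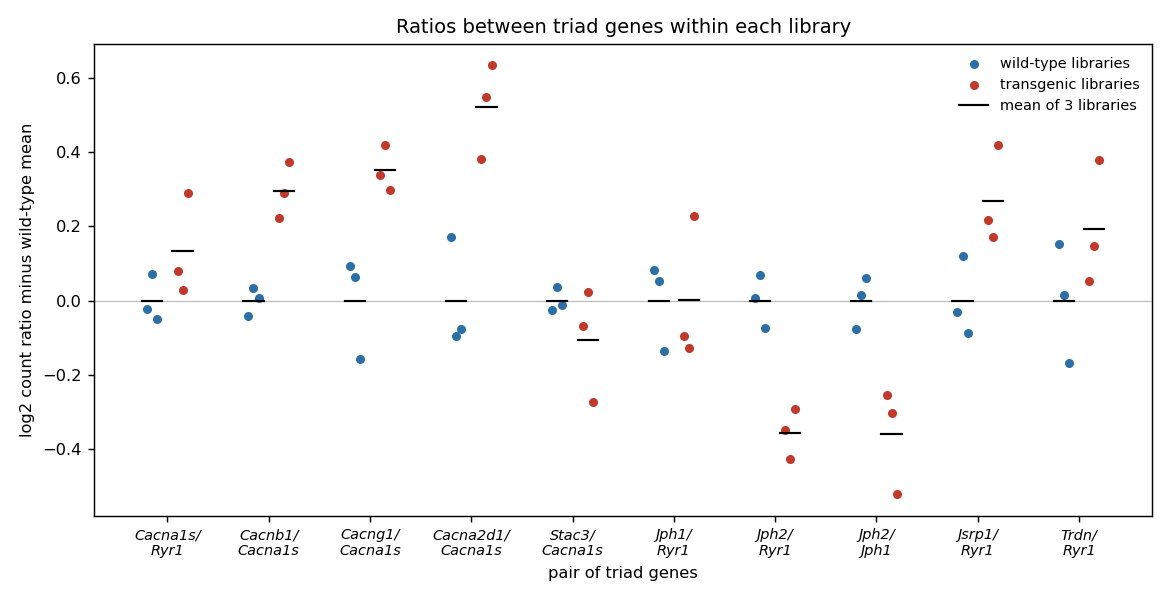
Log2 ratio of the counts of 2 triad genes in each library minus the wild-type mean of that ratio (y axis) for 10 pairs (x axis), wild-type in blue, transgenic in red, black lines for group means. Cacna2d1, Cacng1 and Cacnb1 against Cacna1s lie above the wild-type points by 0.52, 0.35 and 0.30 on average, and Jph2 lies below them by 0.36 against both Ryr1 and Jph1.

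Of 7 reference genes of the muscle fibre, 6 were also called lower under TMM (all but Actn2), against 25.2% of all tested genes. With library totals alone 3 were called lower and Actn2 higher (log2 fold change 0.55), against 8.73% and 52.3% of all tested genes. The triad genes were set against the reference genes within each library, which does not depend on the scaling. The 10 triad genes together took 0.869%, 0.842% and 0.793% of all counts in the transgenic libraries against 1.15%, 1.18% and 1.16% in the wild-type libraries. Summed CPM of the reference genes (Acta1, Ckm, Des, Ttn, Neb, Actn2 and Tpm2) lay at 45040 to 47232 in the transgenic and 85340 to 91063 in the wild-type libraries. Summed triad counts were 16.1%, 15.7% and 15.4% of these reference counts in the transgenic libraries against 15.1%, 15.2% and 15.5% in the wild-type libraries, which overlapped (log2 difference 0.04, exact permutation p = 0.2). Such sums weigh most the genes with most counts: Ryr1 among the triad genes, and Acta1 and Ckm in the reference. Acta1 and Ckm averaged 15849 and 10460 CPM in transgenic and 31050 and 25207 CPM in wild-type muscle. The ratio does not describe each triad gene, whose own log2 fold changes ran from -1.31 (Jph2) to -0.30 (Cacna2d1). Against Ttn, Neb and Des alone, genes of the sarcomere and its links, the triad counts were 46.6%, 45.0% and 55.5% in the transgenic and 54.4%, 58.4% and 57.9% in the wild-type libraries (log2 difference -0.22, exact permutation p = 0.2). Here the direction was the opposite, and transgenic replicate 3 lay among the wild-type libraries, with the lowest Ttn of the 6 at 4840 CPM. Ckm shares 451 exonic bases with an antisense gene whose counts reached 41.3% of its own.

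**Figure D4:**
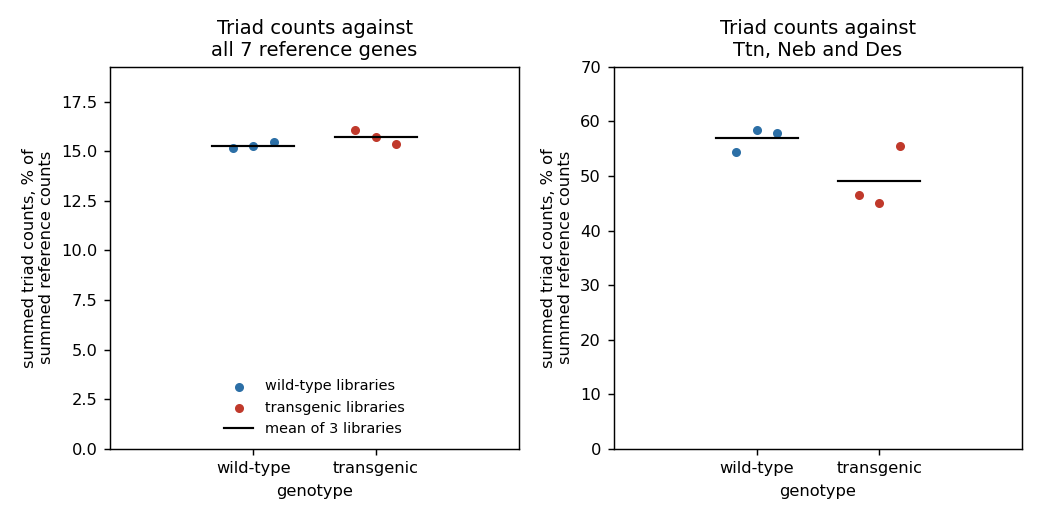
Summed counts of the 10 triad genes as a percentage of summed counts of 7 muscle fibre reference genes (left) and of Ttn, Neb and Des (right), y axes from 0, for 3 wild-type (blue) and 3 transgenic (red) libraries, black lines for means. The means are 15.3% and 15.7% on the left and 56.9% and 49.0% on the right, with overlap on both sides.

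Markers of cell types in the muscle moved with genotype to different degrees. For scale, 25.2% of all tested genes were called lower and 25.5% higher under TMM, and 8.73% and 52.3% with library totals alone. Of 10 muscle fibre markers 8 were called lower and 1, the fast myosin Myh1, higher (with library totals alone 4 and 1), and their summed CPM were 89616 to 91067 in the transgenic and 164239 to 173482 in the wild-type libraries. All 5 endothelial markers (287 to 307 against 357 to 380 summed CPM) and all 5 smooth muscle and pericyte markers (408 to 444 against 590 to 679) were called lower, of which library totals alone left 0 and 3. All 3 satellite cell markers (23.9 to 26.2 against 16.5 to 19.9) were called higher under both scalings. Sums overlapped between genotypes for 6 slow fibre markers (657 to 1708 against 493 to 1430), 4 adipocyte markers (6.43 to 20.6 against 7.04 to 73.0), 4 fibroblast markers (855 to 1005 against 1001 to 1200) and 4 cardiac markers (6.80 to 10.8 against 7.54 to 9.41). The slow fibre sum was highest in replicate 2 of both genotypes. No slow fibre marker was called: Myl3 was at -1.26 without overlap, Myl2 at -0.02, and Myh7, Tnnt1, Tnni1 and Tnnc1 at 0.62 to 0.92 with overlap. In the fibroblast list Col1a1 was called lower with TMM (-0.43) and not with totals alone (-0.035). Sums overlapped also for 4 macrophage markers (38.7 to 49.3 against 30.5 to 48.0), of which Cd68 was called higher under both scalings (1.40 and 1.79) without overlap, and for 4 Schwann cell markers (23.4 to 119 against 46.2 to 93.8). Csf1r, the most abundant macrophage marker at 20.8 against 21.9 CPM, shares 873 exonic bases with a gene on the other strand. The counts of that gene reached 225% of its own, which limits the macrophage sum. No marker was without counts, and the cardiac markers Tnni3 (25 against 20 counts in all) and Nppa (42 against 15) were near 0. These 2 share exonic bases with other genes whose counts reached 367% (Tnni3) and 300% (Nppa) of their own, so their few counts may belong to those genes. The part of these differences in the triad genes' levels was not tested. Ppargc1a, the gene behind the transgene, had 73513 to 120862 counts in the transgenic and 1179 to 1809 in the wild-type libraries, as labelled.

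Genes of the SR lumen and partners of the release channel were mostly lower too. Of 14 tested, 10 were called lower and 1 higher (Selenon, named after its values were seen), with a median log2 fold change of -0.72. Without wild-type replicate 3 the counts were 10 lower and 0 higher. With library totals alone it was 9 lower and 4 higher, with a median of -0.32. Of all tested genes 25.2% were called lower and 25.5% higher under TMM, and 8.73% and 52.3% with totals alone. Tmem38a, a potassium channel that balances charge during calcium release, was at 689 ± 12.8 against 1416 ± 76.9 CPM (SD, n = 3), a log2 fold change of -1.04. Srl, a calcium-binding SR protein, fell by 0.75.

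For T-tubule formation and upkeep, 9 of 13 genes were called lower and 0 higher, with a median of -0.45 (with totals alone 5 lower and 4 higher, median -0.059). The shares over all tested genes were 25.2% lower and 25.5% higher, and with totals alone 8.73% and 52.3%. Tcap, a Z-disc protein, was at 1156 ± 91.6 against 2492 ± 217 CPM (SD, n = 3), a log2 fold change of -1.11. Cav3, the muscle caveolin, fell by 1.01, Ank1, which encodes an ankyrin that links the SR to the sarcomere, by 0.99, and Bin1, which bends the membrane of the T-tubule, by 0.61. Ank1 shares 862 exonic bases with an antisense gene whose counts reached 35.3% of its own. Mtm1, a lipid phosphatase needed for T-tubules and named after its values were seen, was at 21.1 ± 0.705 against 20.4 ± 1.87 CPM and was not called, but was called higher with totals alone (0.45). Bin1, Cav3, Tcap and Ank1 were lower under library totals as well.

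Store-operated calcium entry refills the SR through Stim sensors and Orai channels. Of 7 genes tested 2 were called lower and 0 higher (median -0.23), close to the 25.2% of all tested genes called lower. The 2 were Orai1, at 34.0 ± 1.001 against 50.5 ± 1.48 CPM (SD, n = 3, log2 fold change -0.57), and Stim2 (-0.52). Stim1, the main sensor in muscle and named after its values were seen, was at 348 ± 7.59 against 344 ± 20.0 CPM, with a log2 fold change of 0.02 and overlapping groups. With totals alone 3 of these genes were called higher, Stim1 among them, and 1 lower (Orai1), with a median of 0.17. Of all tested genes 52.3% were then called higher and 8.73% lower.

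Paralogues of the triad genes did not move in one direction. The filter kept 19 of 25 for testing, and 8 were called lower and 5 higher, with a median of -0.34 (with totals alone 4 lower and 5 higher, median 0.05). Among all tested genes 25.2% were called lower and 25.5% higher, so the higher calls came at about the usual share. With totals alone these shares were 8.73% and 52.3%. Cacng7, a relative of Cacng1, had 9.44, 9.23 and 9.97 CPM in the transgenic libraries against 31.6, 28.6 and 29.6 CPM in the wild-type libraries, a log2 fold change of -1.65 (SE 0.07). Cacng6, another relative, had 81.2, 69.3 and 69.2 CPM against 157, 169 and 157 CPM (-1.14, SE 0.07). The fold change of Cacng1 itself was -0.47, and its difference from theirs was not tested. Itpr1, an inositol trisphosphate receptor that releases calcium as Ryr1 does, had 27.0, 28.4 and 27.4 CPM against 64.3, 66.2 and 57.7 CPM (-1.18, SE 0.07).

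Cacna2d2, a relative of Cacna2d1, was higher in transgenic muscle under both scalings. It had 7.56, 6.56 and 9.30 CPM in the transgenic libraries against 1.26, 0.835 and 1.07 CPM in the wild-type libraries, a log2 fold change of 2.91 (SE 0.20). All its transgenic values lay above the wild-type ones, at levels far under the 504 CPM of Cacna2d1. Cacna2d4, named after its values were seen, had 1.68, 0.7996 and 1.79 CPM against 12.4, 9.10 and 13.5 CPM (-3.01, SE 0.27). The other 4 paralogues called higher, also named after their values were seen, averaged at most 3.33 CPM in either genotype. Jph4 had 145 counts in all in the transgenic libraries and 16 in the wild-type ones, which makes a ratio of 7.44 with TMM-scaled library sizes (95% exact interval 4.43 to 13.4, for counting error only), and Cacng4 had 90 against 16 (4.62, interval 2.69 to 8.42). Cacna1d and Cacnb4 share exons with genes on the other strand whose counts reached 189% and 76.0% of their own, and without strand the counts of the genes in a pair cannot be told apart.

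**Figure D5:**
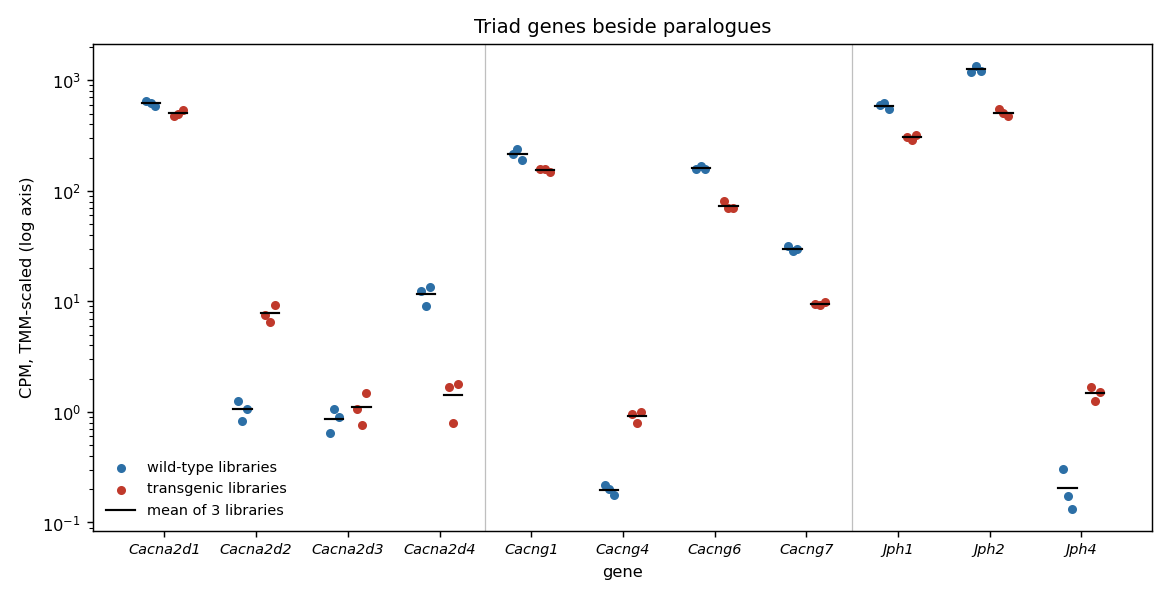
CPM (y axis, log scale) of alpha2delta, gamma subunit and junctophilin genes (x axis) in 3 wild-type (blue) and 3 transgenic (red) libraries, black lines for means; some paralogues were picked after their values were seen. Cacna2d2 (1.05 to 7.81 CPM) and Cacna2d4 (11.7 to 1.42 CPM) move in opposite directions from wild-type to transgenic, while Cacna2d1 stays the most abundant of its family in both.

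The 5 other tested genes whose levels in the 6 libraries were nearest to the mean profile of the triad genes were Npepl1, Ddx23, Aldh4a1, Cyb5b and Tmem63a. The measure was the root mean square distance of log2 CPM centred on the wild-type mean, and it ran from 0.0186 for Npepl1 to 0.0409 for Tmem63a. Npepl1 averaged 81.3 against 140 CPM. In the mean profile of the triad genes the transgenic libraries stood at -0.73, -0.78 and -0.79 and wild-type replicate 2 was the highest, at 0.10.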

How the data were processed

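Bulk RNA of gastrocnemius muscle from 3 transgenic and 3 wild-type libraries was analysed. The deposited count table gives unnormalized fragment counts by gene. Per the submitters' processing notes, the authors used STAR 2.5.0a, featureCounts 2.0.0, GRCm38.p6 and DESeq2, the last with no version stated. Per the file headers, strand was ignored and a fragment over several genes counted for each. The authors' deposited table gives log2 fold changes and p-values for listed genes.

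Libraries held 25532146 to 40846872 counts. Symbols came from GENCODE, which matched 51633 of 51911 IDs. In R 4.3.3, edgeR 4.0.16 (filterByExpr by genotype, TMM, robust quasi-likelihood fit, Benjamini-Hochberg over 16593 genes, threshold 0.05) compared transgenic with wild type; the SE is the absolute log2 fold change over the square root of F. Ratios used counts plus 0.5 and exact two-sided permutation tests in SciPy 1.17.1. Levels per kilobase are CPM over merged exon length. The fit was tested on simulated data. No library was a copy of another: within a genotype, chi-square divided by its degrees of freedom was 10.8 to 26.1.

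The members and lists were chosen with earlier results of these data known. All members are named, then up to 4 called genes per list by smallest p, and the 5 genes nearest the members' mean profile. Some genes that this rule names are not reported here. The text says where a gene was named after its values were seen. Alternatives were DESeq2 1.42.0, upper-quartile factors, library totals alone, other filters on low counts, limma-voom (limma 3.58.1), a non-robust fit, counts without the mitochondrial genome, the replicate block, and leaving out each library. Of the gene names listed for store-operated entry, Stimate is Tmem110 in this annotation.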

Additional observations from a re-analysis of the deposited data

How the results depend on the processing

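All 10 triad genes were called lower under every alternative run except library totals alone, which called 7: there Cacnb1 was at -0.13, Cacng1 at -0.076 and Cacna2d1 at 0.099 on the log2 scale, and the store-operated entry list had 4 calls in place of 2. Over all genes, the alternatives other than totals alone called 3581 to 4207 lower, with 13088 to 34575 tested. Totals alone also gave 8676 genes higher and 1448 lower (85.7% higher, against 50.2% with TMM). Stim2 was then at -0.12 and not called. Requiring at least 1 CPM in all 6 libraries left 8 called paralogues (1 higher, 7 lower) in place of 13, since fewer of them were tested. Of all 13088 genes tested with that filter, 3842 were called higher and 3704 lower. Leaving out 1 library in turn moved the members' median log2 fold change between -0.83 and -0.75, and the Jph1 to Ryr1 difference of 0.0027 ranged from -0.11 (without transgenic replicate 3) to 0.067, and was also below 0 without wild-type replicate 3 (-0.065). The cause was not tested. Against Ttn, Neb and Des the summed triad counts differed by -0.22 in place of 0.04.

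Replicate numbers are shared between genotypes, and the labels do not say that they pair the libraries. Deviations from the group mean correlated across genes at 0.10, -0.09 and -0.21 for same-numbered libraries. For the other pairs of libraries the correlations ran from -0.19 to 0.25. With 3 libraries a group this check cannot exclude a shared batch, and the numbers were not treated as pairs. The summed slow fibre markers were highest in replicate 2 of both genotypes. With the replicate block 8331 genes were called in place of 8419, and all 10 triad genes stayed lower with a median of -0.79. With 3 libraries a group, the exact tests cannot go below 0.1. Leaving out 1 library in turn gave 10 to 13 called paralogues, and Jph4 and Cacng4 rest on 16 wild-type counts each. Overlapping genes limit Cacna1s the most among the members.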
